A study of Drosophila melanogaster with 33 samples.

Results

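Intron sites in genes edited only in introns were taken from a table of RNA editing in fly heads (Drosophila melanogaster). A site belongs here when it lies in an intron of a gene entry that has at least 2 sites in the table and none in an exon. This gave 350 of the 1350 listed sites and of the 729 listed intron sites, in 61 of the 395 gene entries. The rest of the table holds 299 intron sites in entries that also have exon sites, 80 intron sites that are alone in their entry, and 621 exon sites. At the edge of the rule, 29 entries had 2 sites each and held 58 of the 350, while the 80 lone intron sites fall just outside it.

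ADAR converts adenosine to inosine in double-stranded RNA, and sequencing reads the inosine as guanosine. Introns can fold back on themselves where they hold sequence complementary to itself, but they are spliced out and broken down, so their editing is read best in nascent RNA, which is still attached to chromatin. In flies the enzyme acts mainly in neurons, and its best known targets are the coding exons of ion channels and synaptic proteins.

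Nascent RNA of heads was measured in 4 sets of libraries, all depleted of polyadenylated RNA and all from flies of 3 to 4 days that had been kept in light:dark cycles. ADAR0 males carry no functional ADAR and show the background (2 libraries). FM7a males carry a balancer X chromosome (2 libraries), and yw males are the laboratory strain yellow white (2 libraries). These 6 libraries were small preparations of 40 to 45 heads, and per the labels they were sequenced on another instrument than the rest. The light:dark yw flies, whose sex the labels do not give, were sampled at 6 times in 2 replicate sets of 6 libraries each, with rRNA depletion described for set 1. Each level is the percentage of reads with the edited base after the libraries were pooled, so there is 1 level for each male strain, 1 for each replicate set and 1 for all 12 light:dark libraries. The RNA read depth is unknown, male levels have no replicate error, and an entry of 0 says no more than that. The 2 sets give the one measure of error: at the 350 sites the SD of a level was 4.77 percentage points, sets 1 and 2 were a median of 4 points apart, and 37 sites (10.6%) were over 10 points apart. None of the 350 sites carries an mRNA level in the table. Genomic DNA of yw flies covered them with 17 to 94 reads (median 46).

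The label was checked against current gene names. By RefSeq symbols, 6 of the 61 entries, with 35 sites, belong to genes that have exon sites under another entry of the table. CG41343, a piece of lovit, has 1 exon site elsewhere, and lovit encodes a transporter that loads histamine into photoreceptor vesicles. The others are CG42784 with 3 exon sites elsewhere, cngl with 1, CG43462 with 2, Ank2 with 2, and a joined entry that matches Stacl with 1. "Edited only in introns" holds for these 6 as entries of the table, not as current genes.

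The sites were unevenly spread over genes and chromosomes. The 10 entries with the most sites held 191 of the 350 (54.6%). CG17684 led with 31 sites, followed by CaMKII (the calcium/calmodulin-dependent protein kinase) with 29, rdgA (the diacylglycerol kinase of photoreceptors) with 26, and nrm (an immunoglobulin-family cell adhesion protein) with 20. CG40263, named MFS17 in RefSeq, also had 20, PMCA (the calcium pump of the plasma membrane) had 19, CG40178 and CG41343 had 13 each, Snap25 (a SNARE protein of synaptic vesicle fusion) had 11, and nAcRalpha-80B (a subunit of nicotinic acetylcholine receptors) had 9. The remaining entries held 8 sites or fewer each.

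Chromosome 4, which is small and largely heterochromatic, held 68 of the 350 sites (19.4%) and 56 of the 1000 other listed sites (5.6%), which comprised 9.76% of the other intron sites and 3.06% of the exon sites. The scaffolds of heterochromatin in the dm3 build held 96 of the 350 (27.4%) and 4 of the 1000 others (0.4%), or 0.792% of the other intron sites. Together these places held 164 of the 350 sites (46.9%), in 18 entries, against 60 of the 1000 others (6%). The 11 entries on heterochromatin scaffolds included CG17684, CG40263, CG40178, CG41343 and scro, while the 7 on chromosome 4 were CaMKII, PMCA, toy, Syt7, CG2316, CG11148 and Pur-alpha. The X chromosome held 44 of the 350 sites (12.6%), against 25.8% of the others and 33.8% of the other intron sites. These shares have no test, because sites of a gene are not independent, and counting each entry once gave 11.5% of entries on chromosome 4 and 18% on heterochromatin scaffolds, against 3.8% of all 395 entries in each place. Median genomic DNA coverage was 35.5 reads at the 96 heterochromatin sites and 52 reads at the 68 on chromosome 4. Whether read mapping in these places bears on which sites were listed was not tested.

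**Figure D1:**
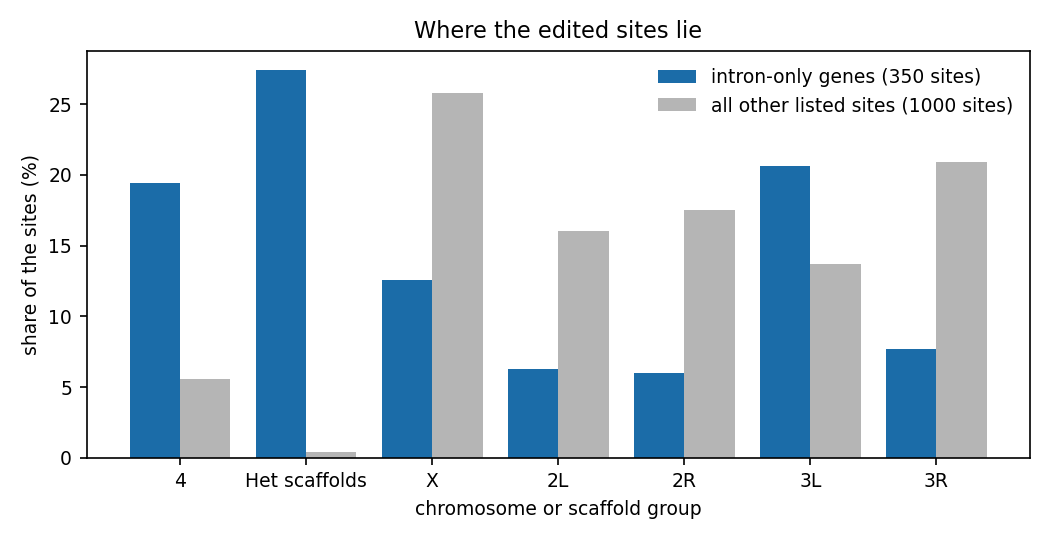
Share of sites on each chromosome or scaffold group, in percent, for the 350 sites of intron-only entries (blue) and the 1000 other listed sites (grey). Chromosome 4 and the heterochromatin scaffolds hold 19.4% and 27.4% of the blue sites, against 5.6% and 0.4% of the grey ones.

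Both 3L and 2R showed a lean toward the centromere, in a view chosen after the positions were seen. On 3L, 45 of the 72 sites (62.5%) lay past 23000 kb, in nrm, nAcRalpha-80B, Snap25, CG40045 and CG17698, against 0 of the 137 other listed sites on that arm. On 2R, 12 of the 21 sites (57.1%) lay before 1100 kb, in Gprk1, gus and p120ctn, against 2 of the 175 other sites (1.14%).

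In light:dark yw nascent RNA the 350 levels ran from 4% to 93%, with a median of 18% and quartiles of 12% and 29%. The 379 other intron sites had the same median of 18%, and the exon sites had 27%. Levels of 50% or more were found at 27 of the 350 sites (7.71%), against 8.44% of the other intron sites and 22.9% of the exon sites. Entry medians ran from 7% in Ank2, an ankyrin of the membrane skeleton, to 62% in Dbp80, a DEAD-box RNA helicase, with a middle value of 18%. The deposited 5th percentile of the level over the 12 libraries was 10% or more at 113 sites (32.3%) and 0 at 38 (10.9%). It was 0 at 7.7% of all listed sites and 7.92% of the other intron sites. Its median was 6% over the 350 sites, 6% over the other intron sites and 8% over all listed sites. Across the 350 sites, many of which share a gene and all of which share the libraries, Pearson's r between the 2 sets was 0.904 and Spearman's rho 0.855.

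The highest light:dark level among the 350 sites was in Snap25, at position 24068086 of 3L (dm3). It was listed at 0% in ADAR0 males, 75% in FM7a males and 100% in yw males, and in light:dark yw at 95% in set 1 and 90% in set 2. The other 10 Snap25 sites had light:dark levels of 9% to 51%, so this one stood apart from the rest of its gene by far more than the error. Next came CG42784 at 2L position 13473547, with 0% in ADAR0 males, 0% in FM7a males, 66% in yw males and 74% in both light:dark sets. A nrm site at 3L position 23029171 was listed at 0% in ADAR0 males, 50% in FM7a males, 50% in yw males, and 74% and 69% in light:dark sets 1 and 2. Dbp80 at 3LHet position 2513280 had 0% in ADAR0, 60% in FM7a and 43% in yw males, with 70% and 63% in the sets. Gprk1, a kinase of G protein-coupled receptors, had 0%, 100% and 64% in ADAR0, FM7a and yw males at 2R position 235909, with 71% and 65% in the sets.

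Levels varied widely within most of the larger entries. Of the 10 entries with the most sites, all but CG40178 had a light:dark maximum at least 20 points above the entry median. In CaMKII levels ran from 5% to 56% around a median of 12%, and in CG17684 from 10% to 64% around 21%. In rdgA they ran from 6% to 60% around 18%, in nrm from 6% to 72% around 17.5%, and in PMCA from 6% to 59% around 19%. CG40178 was narrower, with 9% to 30% around 15%. Among smaller entries, Gprk1 had 17% to 67% with a median of 38% over 7 sites, and cngl, a relative of cyclic nucleotide-gated channels, had 8% to 17% over 6 sites, all below the median of the 350.

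**Figure D2:**
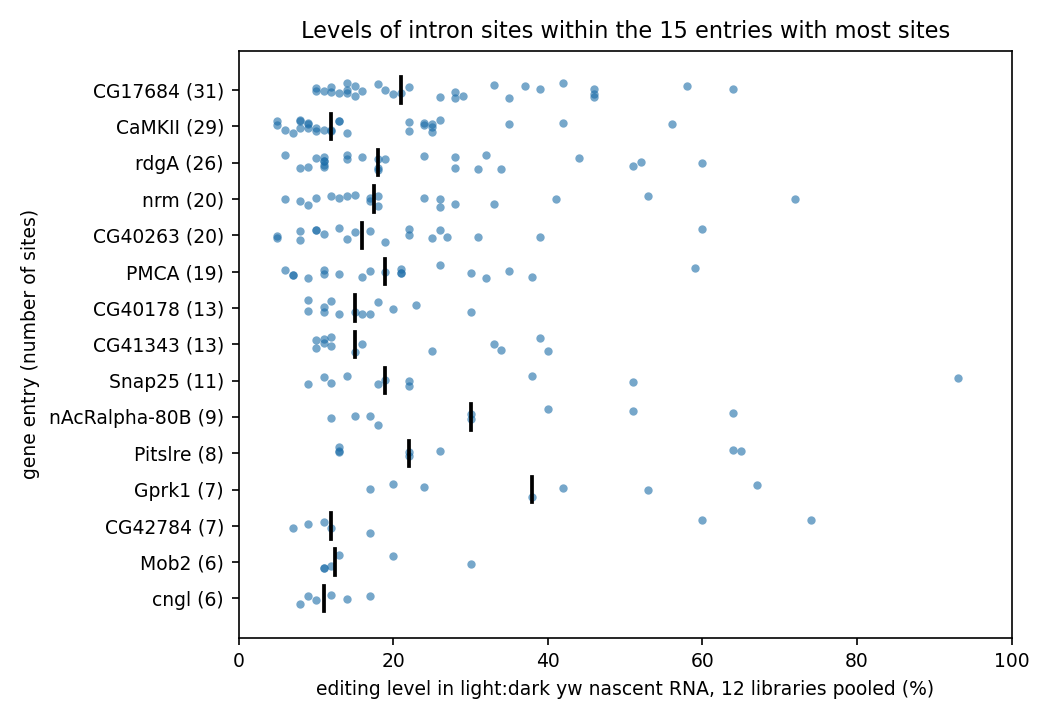
Editing level (percent, pooled over 12 light:dark yw nascent libraries) of each intron site in the 15 entries with the most sites, 1 point per site, with the entry median as a black bar. Most points lie under 40%, and single sites reach 93% in Snap25, 74% in CG42784 and 72% in nrm.

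A list of 18 signalling genes held kinases, phosphatases and cyclic nucleotide enzymes, and 6 of its entries had any site. CaMKII, rdgA and Pka-R2 (a regulatory subunit of protein kinase A) were 3 of these 6, and their 58 sites had a median of 15%. All but the 3 sites of Pka-R2 were in CaMKII and rdgA. The whole list had 68 sites. Pitslre, a cyclin-dependent kinase relative that is not on the list, had 8 sites spanning 460 bases, at 13% to 65%. The sites of rdgA had medians of 0% in ADAR0, 10% in FM7a and 24.5% in yw males, and 18% in light:dark yw. Other genes of photoreceptor signalling had lower levels or fewer sites. The channel gene trpl had 2 sites at 7% and 9%, Ggamma30A (a G protein gamma subunit) had 2 at 14% and 33%, and stops, named for slow termination of the light response, had 3 at 19% to 34%.

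Pumps were represented by PMCA and by nrv3, a beta subunit of the sodium/potassium pump. On a list of 12 gene names of ATPases, pumps, exchangers and calcium release channels, some of them synonyms, 7 entries had a site. PMCA and nrv3 were the 2 that met the rule, with 23 sites at a median of 17%. PMCA had medians of 0% in ADAR0, 10% in FM7a and 21% in yw males, and 19% in light:dark yw. Its highest site, at position 377337 of chromosome 4, stood at 0%, 60% and 73% in ADAR0, FM7a and yw males, with 61% and 58% in the sets.

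Genes of the synapse were few, and some of them had single high sites. Of 20 genes of vesicle release 13 had a listed site, and only Snap25 met the rule, with a median of 19%. Of 18 ligand-gated receptor genes 11 had a site, and only nAcRalpha-80B met the rule, with 9 sites and a median of 30%. Its highest site, at 3L position 23236112, was listed at 0%, 21% and 28% in ADAR0, FM7a and yw males, with 63% and 67% in the sets. The neighbouring site 4 bases away stood at 0%, 21% and 18%, with 30% and 29%. Syt7, a synaptotagmin not on the list of vesicle release genes, had 5 sites on chromosome 4, and 2 of them reached 60% and 58%. The gene tomosyn, also off that list, had 2 sites at 6% and 24%. Voltage-gated channels, with 14 of 20 listed genes edited and 237 sites, had no entry that met the rule. G protein-coupled receptors had 2 of 17 genes edited and none that met the rule, and 10 marker genes of glia and fat body had no listed site.

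Genes of transcription and RNA handling had small sets of sites. The Pax6 gene toy had 5 sites at 9% to 54%, and lola, a BTB transcription factor, had 2 adjacent sites at 20% and 26%. Together they made up the 2 intron-only entries among 8 edited genes of an 18-gene list, with a median of 20%. Outside that list, scro, an NK2-type homeobox gene, had 5 sites at 16% to 51% with a median of 48%. On a list of 18 gene names of RNA binding and splicing, some of them synonyms, 10 entries had a site. The intron-only ones were heph (the polypyrimidine tract-binding protein) at 11% and 19% and CG17838, named Syp in RefSeq, at 17% and 19%. Rbp6, an RNA-binding protein off the list, had 5 sites spread over 160550 bases, at 15% to 42%. Of 30 genes of adhesion and axon guidance 8 had a site, and Lar, a receptor tyrosine phosphatase, was the one intron-only entry, with 3 sites at 8% to 27%.

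Sites were clustered along the genes. Among 289 pairs of consecutive sites the median distance was 131 bases (quartiles 11 and 2519), and 210 of the 350 sites (60%) had a neighbour within 100 bases. The share was 57.7% for intron sites of entries with exon sites and 63.4% for exon sites, each over entries with at least 2 such sites, so close spacing was not particular to intron-only entries. A neighbour within 10 bases was present for 35.1% of the 350 sites, against 36.6% and 34.7%. On chromosome 4, 52 of the 68 sites (76.5%) had a neighbour within 100 bases. Sites with and without such a neighbour had light:dark medians of 17% and 18%. The span of an entry was wide: 21 entries had all sites within 1000 bases, and 24 spread over more than 10000 bases, up to 382544 in CG17684.

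**Figure D3:**
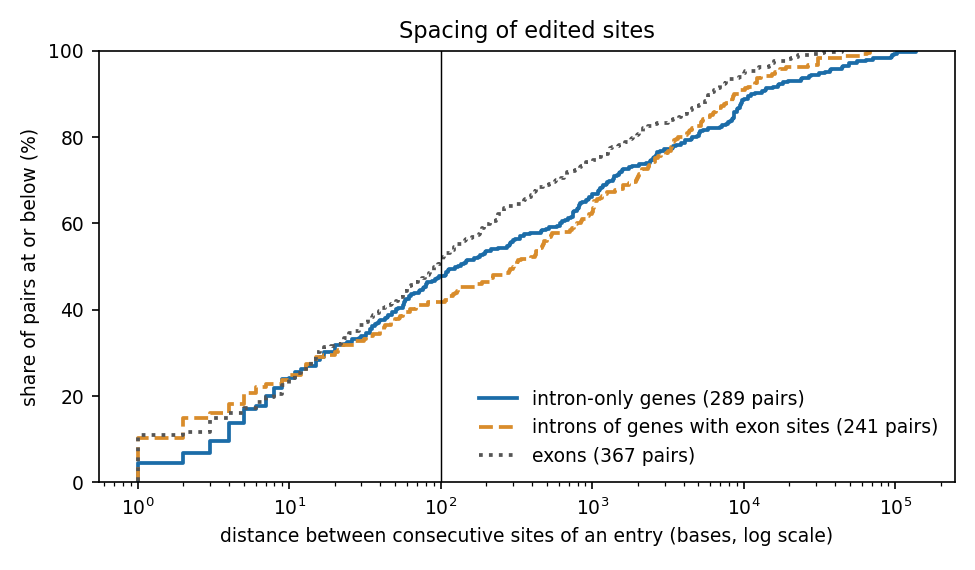
Cumulative share (percent) of pairs of consecutive sites against their distance in bases (log scale), for 289 pairs of intron-only entries (solid), 241 intron pairs of entries with exon sites (dashed) and 367 exon pairs (dotted). The vertical line marks 100 bases, and the 3 curves overlap over the shortest distances, with medians of 131, 306 and 93 bases.

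Runs of sites with no gap over 100 bases formed 72 clusters in 37 entries. Of these, 41 had 2 sites, 19 had 3 and 12 had 4 or more, and the median length was 22.5 bases. The largest was in CaMKII, with 16 sites over 391 bases, from 1061780 to 1062170 of chromosome 4. It held both the highest CaMKII level, 57% and 54% in sets 1 and 2, and many near 10%. A cluster of nrm had 8 sites within 50 bases, from 23027748 to 23027797 of 3L, where the first site stood at 53% and 54% in sets 1 and 2 and the last at 8% and 5%. CG17684 had 6 sites within 183 bases, PMCA had 6 within 102, Pitslre 5 within 139, CG41343 5 within 121, and rdgA 5 within 108. In the rdgA cluster 2 sites 34 bases apart reached 51% and 60%, while the site at position 8916968 was at 6%.

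**Figure D4:**
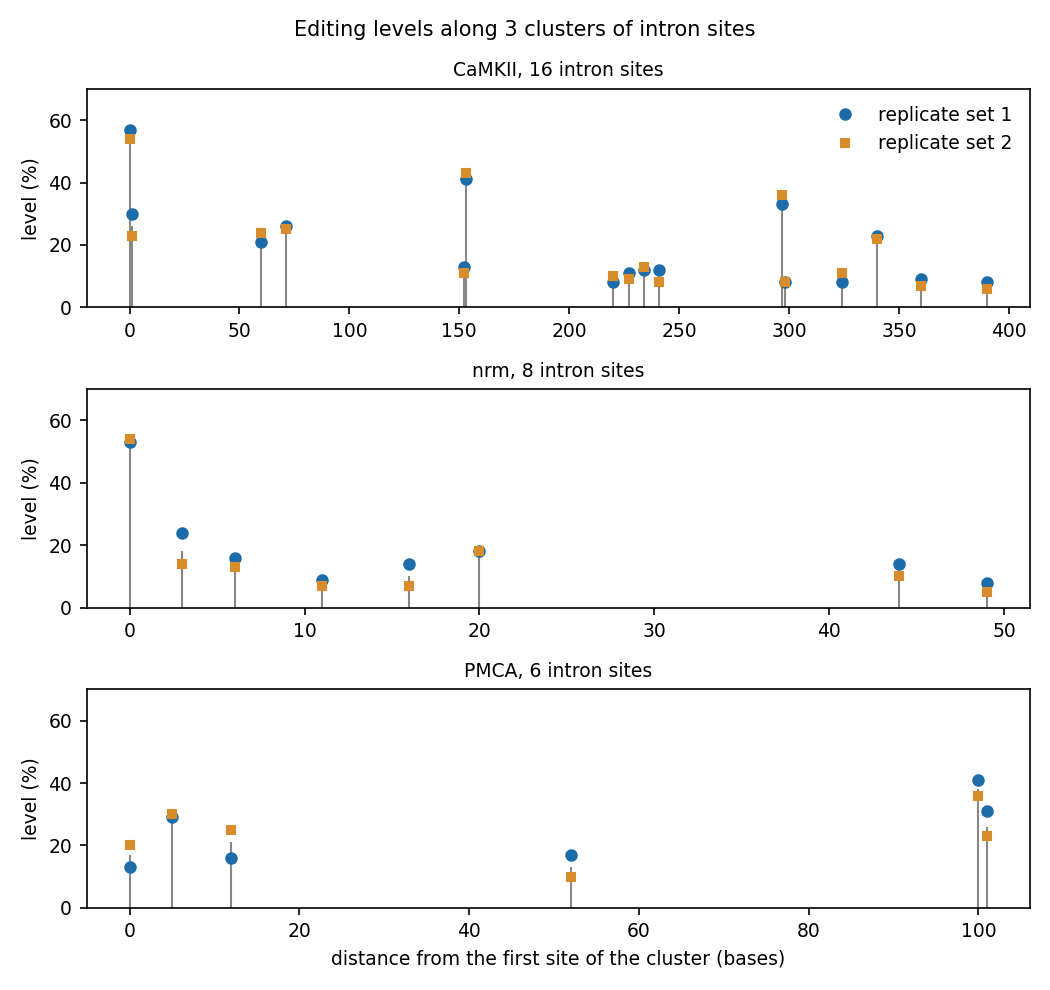
Level (percent) of each site along clusters of CaMKII (16 sites), nrm (8) and PMCA (6), against distance from the first site in bases. Circles are set 1 and squares set 2, vertical lines reach the level pooled over all 12 libraries, and CaMKII has high and low sites on adjacent bases while nrm has 1 high site followed by lower ones.

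Neighbours often differed in level. Pairs at most 10 bases apart differed by a median of 9.5 points, and 22 of the 70 differed by more than 20. Pairs 11 to 100 bases apart differed by 9 points, those farther apart but within 1000 bases by 7, those beyond this but within 10000 by 12.5, and more distant ones by 12. Adjacent bases formed 13 pairs in 10 entries, with a median difference of 6 points, and 4 pairs differed by more than 20. In CaMKII the pair starting at 1061780 had 57% and 54% in sets 1 and 2 at its first base and 30% and 23% at its second. A further CaMKII pair at 1061932 had 13% and 11%, then 41% and 43%, and one at 1062077 had 33% and 36%, then 8% and 8%. The pair of CG17684 at 934868 had 41% and 36%, then 16% and 13%. In these 4 pairs the values of the 2 sets did not overlap between the bases. They were picked by a pooled level made from the same sets, so this is no separate support. Among all 13 pairs, the values overlapped in those of lola, CG40263, Rbp6 and rdgA.

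In ADAR0 males 311 of the 349 sites with a level (89.1%) were listed at 0, and the median was 0%. The share at 0 was 88.1% over all listed sites and 90.1% over the other intron sites. The median over these 349 sites was 11% in FM7a males and 14% in yw males. ADAR0 was lower than FM7a at 283 sites, higher at 5 and equal at 61, and lower than yw males at 307, higher at 2 and equal at 40. Over all listed sites it was lower than FM7a at 1061 of 1333 and lower than yw males at 1160 of 1338. A difference of 10 points or more was taken as a call. Between the 2 light:dark sets 10.6% of the 350 sites were over 10 points apart, a share that leaves out sites exactly 10 apart. By the call, ADAR0 was lower than yw males at 213 sites (61%), against 63.5% of all listed sites, and lower than FM7a males at 189 (54.2%), against 54.9%. Both shares were near those of all listed sites, while the other intron sites had 57.7% and 43.9%. A site under 10% in the males that ADAR0 was compared with could not be called. Among sites at 10% or more there, 213 of 217 were called against yw males (98.2%) and 189 of 191 against FM7a males (99%). Over all listed sites at 10% or more these shares were 98.5% and 98.3%.

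Residual ADAR0 levels were small at all but 1 site: 20 sites were at 1% or 2%, 8 at 3% or 4% and 9 at 5% to 8%. Among the 27 sites of 50% or more in light:dark yw, 22 were listed at 0 in ADAR0 and the highest had 7%. The exception lay in CG42784 at 2L position 13471520, at 100% in ADAR0 males, 100% in FM7a males, 0% in yw males, and 9% and 13% in light:dark sets 1 and 2. Among the next were 3 sites of CG17684, at 8%, 7% and 6% in ADAR0, a dpr10 site at 7% and a cngl site at 6%.

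**Figure D5:**
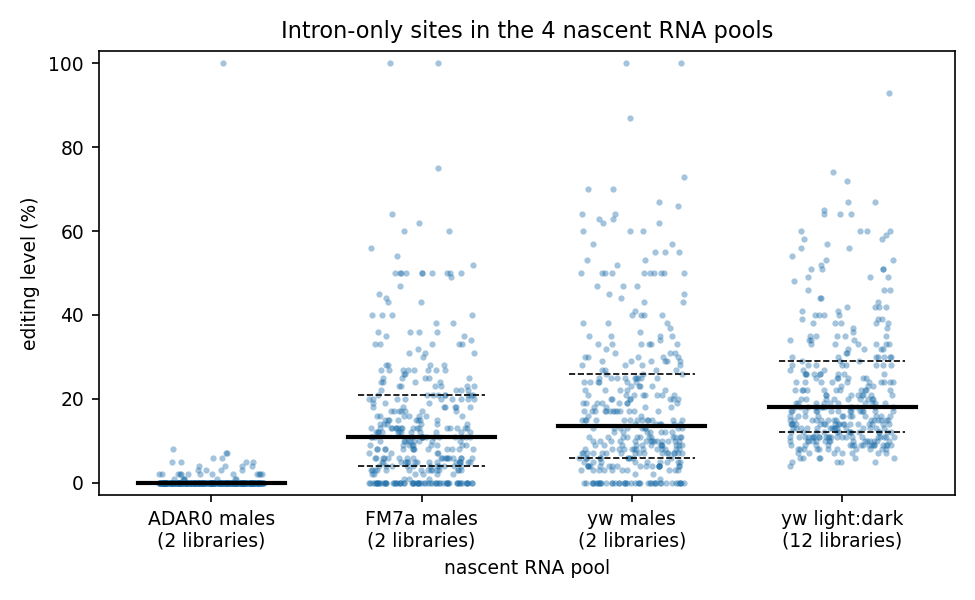
Level (percent) of each intron-only site in nascent RNA of ADAR0, FM7a and yw males (2 pooled libraries each) and light:dark yw flies (12 pooled libraries), with the median as a thick line and quartiles as dashed lines. The medians are 0%, 11%, 13.5% and 18%, and 1 ADAR0 point lies at 100%.

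Levels in FM7a males were lower than in yw males at 208 of 349 sites, higher at 108 and equal at 33. The median of FM7a minus yw was -3 points, against -2 over all listed sites, where FM7a was lower at 774 of 1336. FM7a was lower by 10 points or more at 99 sites (28.4%), against 25.3% of all listed sites, and higher by that much at 39 (11.2%), against 10.6%. At the 44 sites on the X chromosome, the balancer in FM7a, the medians were 8% in FM7a and 14% in yw males. FM7a was lower by 10 points or more at 19 of them (43.2%) and higher at 5 (11.4%), against 25.6% and 9.06% of the 254 other X sites with a level in both strains. Of these 44 sites 26 are in rdgA, and so are most of the 19 lower ones, so the X share is largely that of rdgA. The medians of rdgA were 10% in FM7a and 24.5% in yw males. The difference between the groups of sites was not tested. Every site was at 0 in FM7a males in 5 entries and in yw males in 4, of which CG17698 and CG17838 were at 0 in both. All 6 cngl sites were listed at 0 in FM7a males, against 4% to 11% in yw males. All 3 gus sites also were at 0 in FM7a, against 4%, 33% and 10% in yw males. Conversely, the joined entry of CG15465 and CG6775 had 9% and 13% in FM7a males and 0 at both sites in yw males. CG6775 is also listed alone, as rg, and its sites there had 0%, 8% and 13% in yw males. Large differences went both ways: a CG17684 site at 2RHet position 634137 was at 0% in FM7a and 67% in yw males, and another at 990851 was at 56% in FM7a and 0% in yw males. Sites of scro (3LHet 223285) and uex (2RHet 3177999) were at 50% in FM7a and 0% in yw males. An rg site (X 5099512) was at 50% and 13%. In rdgA, X position 8914417 was at 40% in FM7a and 100% in yw males, and 8860450 at 0% and 55%. Rbp6 at 3L position 17205143 was at 11% and 62%. With unknown depth and no replicate levels, none of these differences can be set against an error of its own.

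Levels in yw males were lower than in light:dark yw nascent RNA at 227 of the 350 sites, higher at 110 and equal at 13. The median of yw males minus light:dark yw was -3 points, against -5 over all listed sites, where yw males were lower at 947 of 1346. Of the 350 sites, yw males were lower by 10 points or more at 93 (26.6%), against 34.2% of all listed sites. They were higher by that much at 41 (11.7%), against 8.54%. The sites had been listed in a table whose light:dark levels are never 0, while 42 of the 350 were at 0 in yw males. The scale of preparation and the instrument differ between these libraries, as the sex may, and cannot be told apart. Across the 350 sites the light:dark level correlated with that of yw males with a Pearson's r of 0.713, and with that of FM7a males (349 sites) with 0.633.

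Sites listed at 0 in control males numbered 63 of 349 in FM7a males, 42 of 350 in yw males and 17 in both. The shares were 18.1% in FM7a and 12% in yw males, against 18.9% and 12.1% of all listed sites. Other intron sites had 30.1% and 18.7%. A mark in the table gives the sites seen in all 4 FM7a and yw male libraries. It covered 126 of the 350 sites (36%), against 45.1% of all listed sites. It covered 31.1% of intron sites in entries with exon sites, 20% of lone intron sites and 60.2% of exon sites. Among the 350 the share grew with the light:dark level, and was 17.4% of sites under 10%, 29.1% at 10% to under 20%, 40% at 20% to under 30%, 47.5% at 30% to under 50%, and 70.4% at 50% or more. At the same 50% or more it was 56.7% for intron sites in entries with exon sites and 84.5% for exon sites. By place it was 47.1% on chromosome 4 and 20.5% on X. CaMKII had 18 of its 29 sites marked and CG41254 all 4, while cngl, stops, Pka-R2 and rg had none.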

How the data were processed

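Nascent RNA libraries of fly heads were analysed from 1 deposited table of 1350 sites. Its editing levels are fractions, pooled over libraries by the authors per the file headers and deposited in hundredths, multiplied by 100 here to give percent. The 5th percentile over the 12 light:dark libraries is also deposited. Genomic DNA coverage is a deposited read count. Per the submitters' processing notes positions are on dm3, and TopHat, CASAVA 1.6 and CASAVA 1.8 are named. The sources used here give no account of site calling, and whether positions count from 0 or 1 is not stated. The labels do not say that replicate libraries came from separate cultures.

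Sites were selected by region and by rows per gene entry, taking joined entries as their own. The genes rg (CG6775) and CG40178 therefore each appear among the 61 entries both alone and in a joined entry. The SD of a level was taken from the difference of the 2 light:dark sets, as the square root of the mean squared difference over 2. A neighbour is a site of the same entry within 100 bases. Groups were compared by medians, numbers of sites and differences of 10 points or more, with no test, because male levels have no replicates. The classing of entries and the cluster sizes were tested on simulated tables, and the SD of a level on real levels with simulated error. The other calculations were not tested in this way. Python 3.11.15, pandas 2.3.3, numpy 2.4.6 and matplotlib 3.10.9 were used. Gene names outside the table came from RefSeq's Release 6 gene table, which matched 60 of 61 entries. Named are the 10 entries with the most sites, the 5 highest light:dark and ADAR0 levels, the 5 largest FM7a and yw differences in each direction, clusters of 5 or more sites, list members, and other sites chosen after their values were seen. The members and gene lists were chosen with earlier results of these data known.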

Additional observations from a re-analysis of the deposited data

How the results depend on the processing

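Of 97 values of 10 results under alternative settings, 80 stayed close to the value reported, 17 moved further and 0 reversed. Close means within 4.77 points, the SD of a level, for medians, and within the exact 95% binomial interval of the reported share for shares, which covers counting error only. That SD is of a single site, so it is a wide bound for a median over many sites. For example, the median of yw males minus light:dark yw, -3 points, counted as close at -1 over sites seen in all control male libraries. It also did so at -5 without chromosome 4 and heterochromatin. Counting each entry once gave 55.1% of sites with ADAR0 at least 10 points lower than yw males, 30.9% seen in all control male libraries, 11.5% on chromosome 4 and 18% on heterochromatin scaffolds. Without CG17684, the entry with most sites, heterochromatin held 20.4%. A neighbour was present within 50 bases for 53.4% and within 500 bases for 70.3%, and with a minimum of 3 sites per entry 65.1% had one within 100 bases. With a bound of 5 points ADAR0 was lower than yw males at 78.2% and than FM7a males at 70.2%, and with 20 points at 36.4% and 27.5%. Without sites listed at 0 in a control male strain, the shares at the 10-point bound were 69.2% and 66.1%. Over sites seen in all control male libraries they were 88.1% and 84.9%. Both settings keep sites by what was seen in the control males, which favours a higher share, so these rises are no separate support. Without chromosome 4 and heterochromatin, the share lower than FM7a was 48.6% and the share seen in all control libraries 30.1%. The last setting, that without entries whose gene has exon sites elsewhere, and all settings for chromosome shares were chosen after seeing the data. The light:dark median was 19% in set 1 and 17% in set 2. No paired analysis was possible because each male strain has 1 pooled value per site. Unknown RNA depth limits every single level.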
